A study of Mus musculus with 6 samples.

Results

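The neutrophil granule genes examined here were 10 genes: Mpo, Elane, Prtn3 and Ctsg of the primary granules, Camp, Ltf, Ngp and Lcn2 of the specific granules, and the abundant cytosolic pair S100a8 and S100a9. They were found as the rows of the deposited gene table that carry these symbols, and all 10 were present among 24532 genes. The genes had been chosen from earlier results of these same libraries, in which granule genes stood out in the ureter. Their values are therefore given as a description, with no test. The study addressed the kidney and ureter of newborn mice that lack Ahnak, a very large scaffold protein. Bulk RNA-seq was made from Ahnak KO and WT (wild type) mice at PN1, with 2 kidney libraries and 1 ureter library of each genotype. The KO allele disrupts exon 5 of Ahnak. Each RNA preparation pooled several kidneys or ureters, so a library need not be a single animal, and the labels do not say whether replicates came from separate litters.

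Neutrophils build their granules in a fixed order while they mature. Promyelocytes make the primary granules, which hold myeloperoxidase and the serine proteases. Myelocytes then make the specific granules, which hold cathelicidin, lactoferrin and lipocalin. Transcripts of the primary granule proteins are largely lost by the time a neutrophil leaves the marrow, while S100a8 and S100a9 transcripts stay abundant in the mature cell. In newborn mice the liver and spleen still make granulocytes beside the marrow. Lcn2 is also made by kidney tubule epithelium, and Ctsg is also a protease of mast cells.

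The libraries held 36410246 to 66095616 counts, the fewest in the Ahnak KO ureter library. Counts were scaled by library size and TMM factors to the usual CPM scale, and 3 counts, used here as the floor for a gene listed at 0, stood for 0.0421 to 0.101 CPM. These floors cover counting error only. Ahnak itself was at 139 and 130 CPM in the Ahnak KO kidney libraries, 183 and 189 in the WT kidney libraries, 635 in the Ahnak KO ureter and 727 in the WT ureter library. Ahnak was thus still counted in every library labelled Ahnak KO. The counts are given per gene, so reads of the disrupted exon were not examined on their own. The genotype of the ureter libraries rests on their labels. The sample titles call both ureter libraries kidney, while their source labels say ureter, so the tissue was checked with markers. All 10 kidney markers were lower and all 10 ureter markers higher in the ureter libraries (edgeR quasi-likelihood test, adjusted p under 0.05). Ahnak KO kidney replicate 1 stood apart with 176348 Xist counts against 17 to 36 in the other 5 libraries.

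The members lie in a few places of the genome. Positions are those of RefSeq on GRCm38.p6. Elane (chr10:79886312-79888216) and Prtn3 (chr10:79879667-79883174) lie side by side on the plus strand. S100a8 (chr3:90669071-90670034) and S100a9 (chr3:90692630-90695721) are neighbours on opposite strands. Ngp (chr9:110419808-110423012), Ltf (chr9:111019292-111042766) and Camp (chr9:109847377-109849456) share a stretch of chromosome 9. Mpo lies at chr11:87793784-87804412 and overlaps the gene model Gm34064, so reads of the overlap could belong to either. Ctsg lies at chr14:56099885-56102574 and Lcn2 at chr2:32384637-32387739, both on the minus strand.

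The promoters were read because the members moved together in the WT ureter library. Each promoter window ran from 250 bases before to 50 after the RefSeq start. Windows were searched on both strands for AGGAAGT, a form of the PU.1 motif, for CAACGG, a form of the Myb motif, and for TTGCNNAA, a core of the C/EBP motif. PU.1, Myb and C/EBP proteins are transcription factors of the granulocyte lineage. The letters were settled after the member promoters had been read, so the shares below support nothing further. No letters are shared between the matches found. AGGAAGT occurred in 5 of the 10 member promoters and in 9.35% of 32851 promoters. CAACGG occurred in 2 of 10 and in 5.12% of all promoters, and TTGCNNAA in 4 of 10 and in 10.8%. All 4 primary granule promoters held AGGAAGT. The stretches below run 5′ to 3′ on the gene's strand, with each match in capitals and 20 bases around it where the window allowed.
Mpo (chr11:87793541-87793587, PU.1): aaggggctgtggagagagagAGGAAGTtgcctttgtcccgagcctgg
Elane (chr10:79886208-79886286, PU.1 and Myb): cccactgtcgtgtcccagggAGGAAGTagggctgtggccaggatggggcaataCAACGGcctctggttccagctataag
Prtn3 (chr10:79879553-79879636, PU.1 and Myb): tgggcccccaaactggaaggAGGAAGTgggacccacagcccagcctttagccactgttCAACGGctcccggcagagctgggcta
Ctsg (chr14:56102754-56102800, PU.1): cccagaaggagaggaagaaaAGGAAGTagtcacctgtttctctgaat
Ltf (chr9:111019197-111019244, C/EBP on the opposite strand): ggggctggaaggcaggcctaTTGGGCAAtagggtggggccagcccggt
Ngp (chr9:110419650-110419697, C/EBP): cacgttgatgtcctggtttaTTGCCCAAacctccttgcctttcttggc
Ngp (chr9:110419777-110419824, C/EBP on the opposite strand): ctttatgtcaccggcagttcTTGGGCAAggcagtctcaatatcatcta
Lcn2 (chr2:32387928-32387975, C/EBP): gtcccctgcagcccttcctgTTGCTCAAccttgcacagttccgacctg
S100a8 (chr3:90668879-90668925, PU.1 on the opposite strand): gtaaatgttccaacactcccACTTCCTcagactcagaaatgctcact
S100a9 (chr3:90695930-90695971, C/EBP): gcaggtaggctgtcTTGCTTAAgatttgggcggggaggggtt

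In Elane and Prtn3 the PU.1 letters began 84 and 94 bases before the start, and the Myb letters followed at 51 and 56 bases before it. Camp held none of these letters in its window. Matches are descriptions of the sequence and not measured binding sites.

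**Figure D1:**
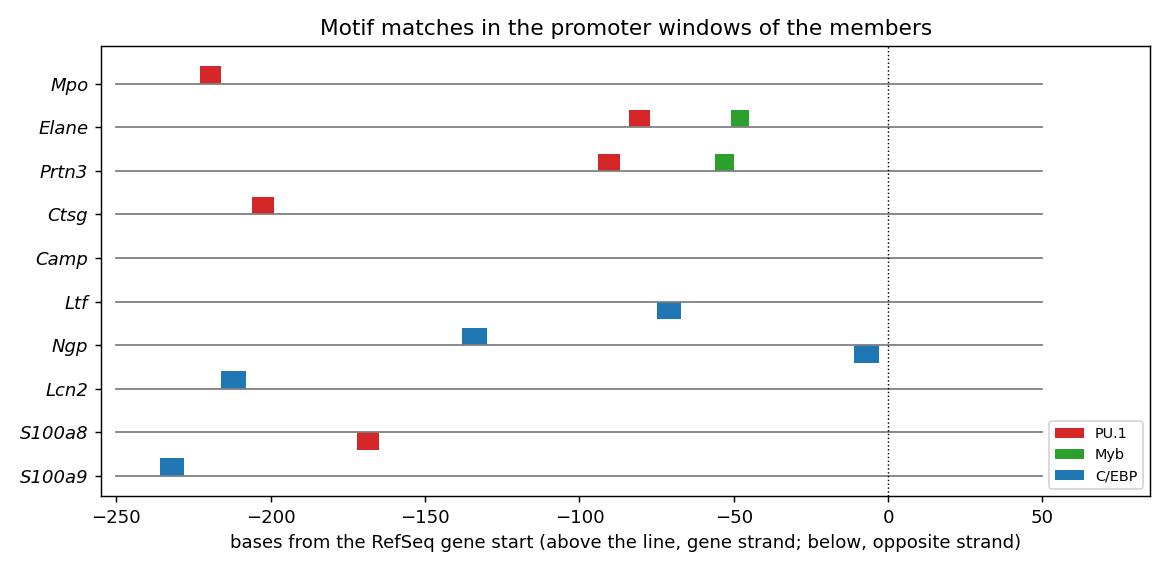
Positions of motif matches in the 10 member promoters, in bases from the RefSeq start (x axis), 1 line per gene; bars above a line lie on the gene strand and bars below it on the opposite strand. The primary granule genes and S100a8 carry the PU.1 letters, Elane and Prtn3 also the Myb letters, and 4 other members the C/EBP letters.

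In the WT ureter library, 9 of the 10 members were at their highest level of the 6 libraries. Over all genes with at least 10 counts in a ureter library, 21.6% were highest there. Lcn2 was the exception. The 10 genes together took 0.0176% of the counts of the WT ureter library and 0.00313% to 0.00507% of the other 5. In summed CPM this was 3.69 times the Ahnak KO ureter library and 3.94 times the highest kidney library. With 1 ureter library per genotype, the difference between the ureters has no replicate check. In bulk RNA, more cells of a type and more RNA per cell cannot be told apart.

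Mpo encodes myeloperoxidase, the enzyme that makes hypochlorous acid in the primary granule. It had 957 counts in the WT ureter library and 0 in the Ahnak KO ureter library. The kidney libraries had 0 and 7 counts (Ahnak KO) and 4 and 0 (WT). The WT ureter library stood alone, at least 184-fold above the Ahnak KO ureter and 158-fold above the highest kidney library in CPM. Elane, neutrophil elastase, had 176 counts in the WT ureter library and was listed at 0 in the other 5. It was at least 33.9-fold higher in the WT than in the Ahnak KO ureter and at least 67.7-fold higher than in any kidney library.

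Prtn3 encodes proteinase 3, whose gene lies beside Elane. It had 502 counts in the WT ureter and 45 in the Ahnak KO ureter library, and 143, 170, 191 and 150 in Ahnak KO kidney 1 and 2 and WT kidney 1 and 2. In CPM the WT ureter was 6.45-fold above the Ahnak KO ureter and 3.41-fold above the highest kidney library, and the Ahnak KO ureter lay below all 4 kidneys. Prtn3 thus differed from its neighbour Elane in the kidney, where Prtn3 was counted in all 4 libraries and Elane in none. On the length-scaled FPKM of the deposited table, Prtn3 made up 98.7% to 100% of the primary granule sum in the kidney, 49.0% in the Ahnak KO ureter and 38.6% in the WT ureter library.

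Ctsg encodes cathepsin G. It had 257 counts in the WT ureter, 48 in the Ahnak KO ureter and 0 in all 4 kidney libraries. It was 3.09-fold higher in CPM in the WT ureter, and the Ahnak KO ureter itself was at least 32.0-fold above the kidney floor. Most mast cell and basophil genes separated the tissues in the same way. The summed level of this list was 223 CPM in the WT ureter, 342 in the Ahnak KO ureter and 7.36 to 9.89 in the kidney libraries. All 12 genes of that list were in the table, and Mcpt2 was at 0 in every library. In the tissue comparison 8 of 11 tested mast cell genes were higher in ureter and 1 was lower, against 21.4% and 23.7% of all genes. Among the higher were Cpa3 with a log2 fold change of 7.01 (SE 0.44, edgeR adjusted p = 7.9e-05) and Cma1, mast cell chymase, with 6.67 (SE 0.40, edgeR adjusted p = 6.8e-05). The lower gene was Ms4a2, at -2.86 (SE 0.31, edgeR adjusted p = 0.00069). The part of mast cells in the Ctsg counts was not tested.

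**Figure D2:**
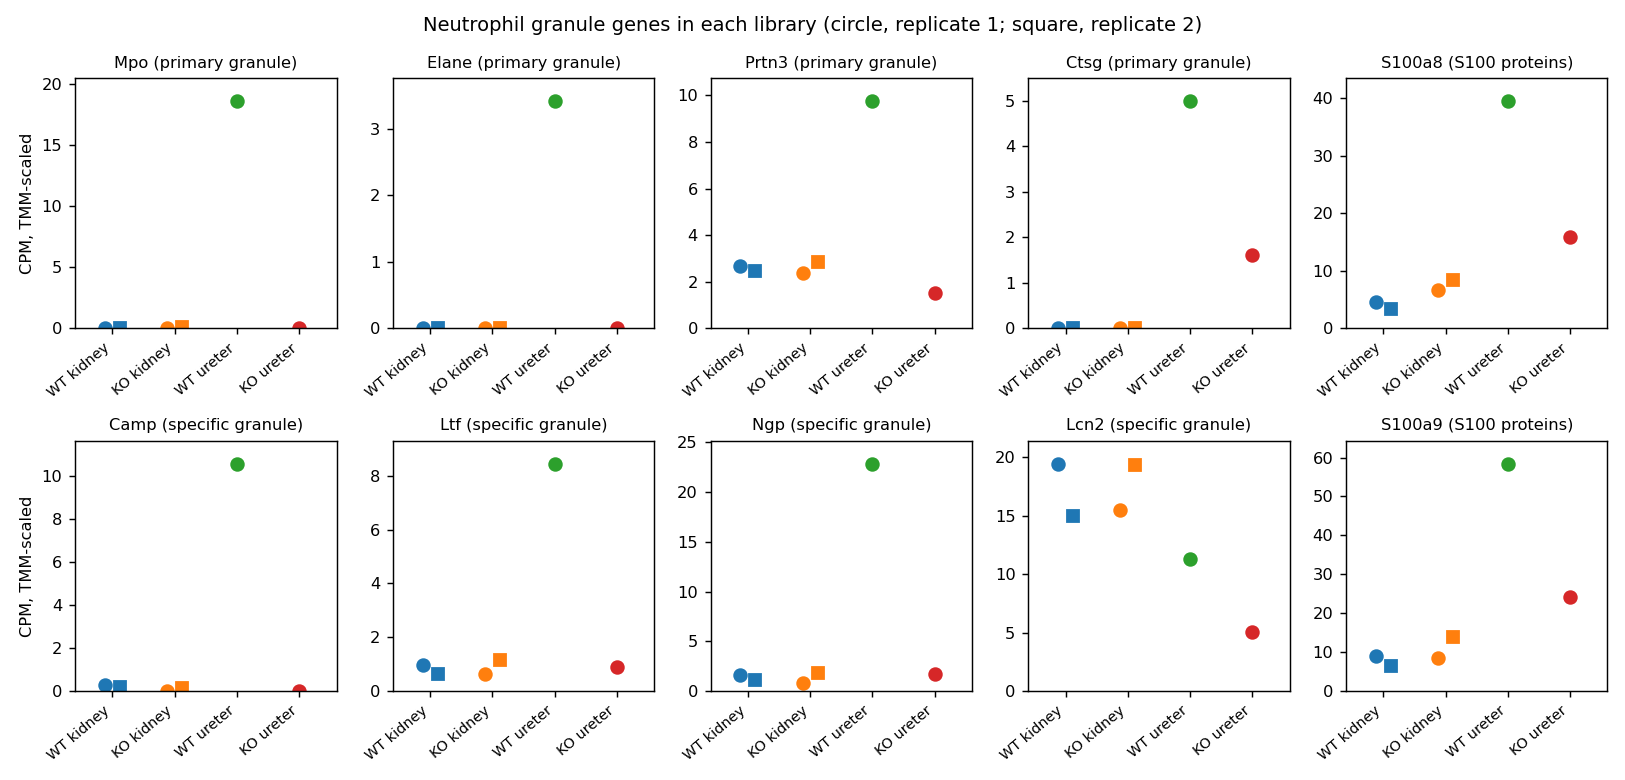
Level of each of the 10 members in CPM scaled by TMM (y axis, from 0, own scale per gene) by tissue and genotype (x axis); each point is 1 library. The WT ureter point is highest for every gene but Lcn2, and Mpo, Elane and Camp lie at 0 in the Ahnak KO ureter.

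Camp encodes the cathelicidin antimicrobial peptide of the specific granule. It had 545 counts in the WT ureter and 0 in the Ahnak KO ureter library, with 0 and 9 in the Ahnak KO kidneys and 21 and 11 in the WT kidneys. The WT ureter library was at least 105-fold above the Ahnak KO ureter and 35.9-fold above the highest kidney library. Ngp, a neutrophilic granule protein related to the cathelicidins, had 1176 counts in the WT ureter and 52 in the Ahnak KO ureter, and 50, 110, 111 and 68 in the kidneys in the order used for Prtn3. The WT ureter was 13.1-fold above the Ahnak KO ureter, which lay within the kidney range. Ltf, lactoferrin, an iron-binding protein, had 435 counts in the WT ureter, 27 in the Ahnak KO ureter and 38, 68, 69 and 39 in the kidneys. Its ratio of WT to Ahnak KO ureter was 9.31, and again the Ahnak KO ureter lay within the kidney range.

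Lcn2, which binds bacterial siderophores, had another order. It had 935, 1147, 1384 and 913 counts in the kidneys, 580 in the WT ureter and 151 in the Ahnak KO ureter library. In CPM all 4 kidney libraries (15.0 to 19.4) lay above the WT ureter (11.3), and the Ahnak KO ureter was lowest (5.08). The WT ureter was 2.22-fold above the Ahnak KO ureter. The 11 tubule injury genes, a program that includes Lcn2 in damaged kidney, summed to 563 to 711 CPM in the kidneys, 990 in the WT ureter and 1290 in the Ahnak KO ureter, with Havcr1 at 0 in both ureters. Krt20 was at 213 CPM in the WT and 490 in the Ahnak KO ureter, against 1.31 to 2.95 in the kidneys. Clu was at 148 and 501 CPM, against 104 to 139. Fos of the same list, named after its values were seen, was at 361 CPM in the WT and 77.5 in the Ahnak KO ureter, against 6.06 to 84.7. Krt20, Clu and Fos made up much of the ureter sums, so the sums rest on few genes and are not a measure of injury. Spp1 was at 287 to 377 CPM in the kidneys and 12.3 and 3.50 in the ureters. The part of these genes in the Lcn2 values was not tested.

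S100a8 and S100a9 form calprotectin, which binds calcium and zinc. S100a8 had 2034 counts in the WT ureter, 474 in the Ahnak KO ureter, 404 and 501 in the Ahnak KO kidneys and 322 and 200 in the WT kidneys. S100a9 had 3006, 715, 515 and 817, and 634 and 396 counts in the same order. In CPM both were highest in the WT ureter, 2.48-fold and 2.43-fold above the Ahnak KO ureter. The Ahnak KO ureter was itself above all 4 kidney libraries for both, at 15.9 against at most 8.43 CPM for S100a8 and 24.0 against at most 13.8 CPM for S100a9. By deposited FPKM these were the most abundant members in both ureter libraries, and S100a9 (102 FPKM) exceeded 97.2% of genes in the WT ureter library.

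Between the ureter libraries all 10 members were lower in Ahnak KO by over 2-fold on the log2(CPM + 0.5) scale, a scale that understates the change of low genes. The background was 6.26% of 16117 genes lower and 4.86% higher by over 2-fold. Since the members were chosen on this difference, the count supports nothing further. Their median log2 ratio was -2.51, against -0.02 over all genes compared, and was -2.95 as a plain CPM ratio with genes at 0 set to 3 counts. On this scale Mpo was at -5.25, Camp at -4.47, Ngp at -3.38, Elane at -2.97, Ltf at -2.67 and Prtn3 at -2.35. The order of the low genes depends on the pseudocount, since Elane, at least 33.9-fold lower by its bound, exceeded Ngp at 13.1-fold. Ctsg (-1.38), S100a8 (-1.28), S100a9 (-1.26) and Lcn2 (-1.08) were the nearest to 0.

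Ratios within a library do not depend on its scaling. FPKM values were used for them, because they are divided by transcript length. Mpo was 0.0654 of S100a9 in the WT ureter and 0 to 0.00153 in the other 5 libraries. Camp, Ltf and Ngp summed to 0.362 of S100a9 in the WT ureter, 0.0400 in the Ahnak KO ureter, 0.118 and 0.128 in the WT kidneys and 0.0579 and 0.0859 in the Ahnak KO kidneys. So the WT ureter library held more Mpo and more of these 3 specific granule transcripts for each unit of S100a9 than any other library, and the Ahnak KO ureter library held the least of the 3. Lcn2 was left out of this sum. With it the order changed, to 0.480 in the WT ureter, 0.170 in the Ahnak KO ureter and 0.948 to 1.53 in the kidneys. Prtn3 did not follow, at 0.0901 of S100a9 in the WT ureter, 0.0339 in the Ahnak KO ureter and 0.112 to 0.204 in the kidneys. S100a8 stayed at 0.673 to 1.05 of S100a9 in all 6 libraries.

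**Figure D3:**
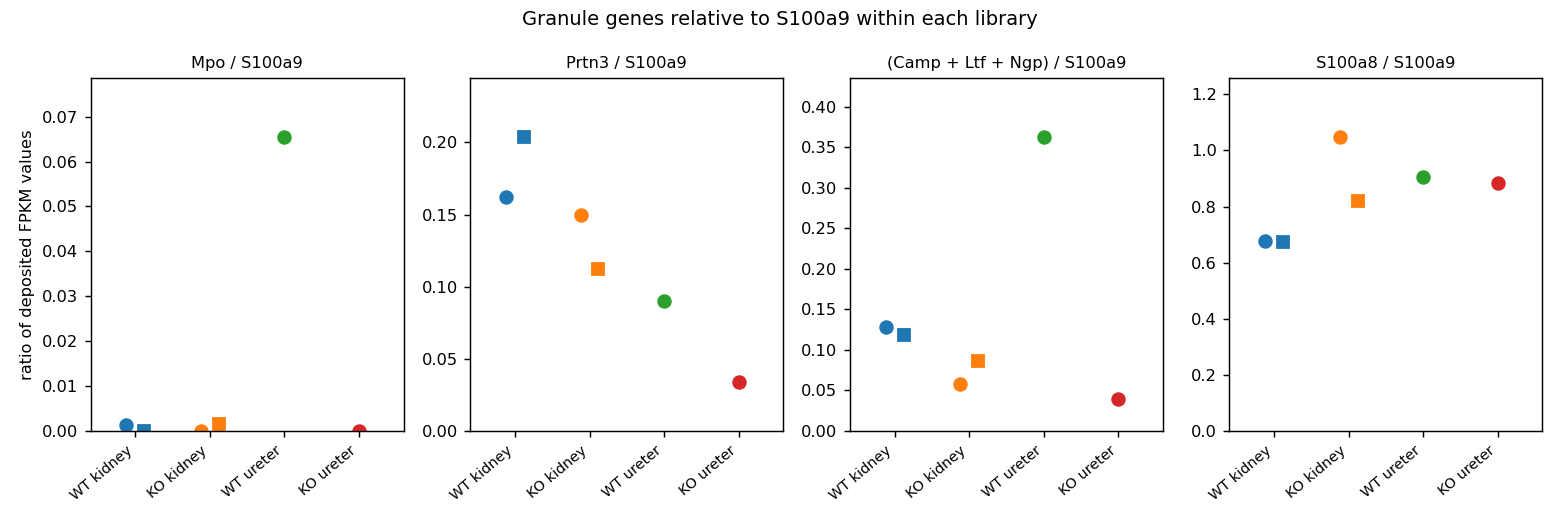
Ratios of deposited FPKM values within each library (y axis, from 0) for Mpo, Prtn3, the sum of Camp, Ltf and Ngp, and S100a8, each over S100a9; 1 point per library. Mpo and the sum of Camp, Ltf and Ngp are highest in the WT ureter, Lcn2 is not in the sum, Prtn3 is higher in the kidneys, and S100a8 stays between 0.673 and 1.05.

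A gene listed at 0 in this table is an estimate and may stand for reads given to another gene. The listing was therefore set against genes of like depth. Of 3433 genes with 176 to 957 counts in the WT ureter library, the span from Elane to Mpo, 12 were listed at 0 in the Ahnak KO ureter library (0.35%). They were Mpo, Camp and Elane and, named after their values were seen, Setdb2, LOC109729085, Tmem181c-ps, Phf11c, Evi2b, Osm, Cxcl13, Mybpc1 and Gm5796. Setdb2, a histone methyltransferase, had 314 to 711 counts in the kidneys and 686 in the WT ureter. Elane was the only gene of that span at 0 in all 5 other libraries. The span was set by the members' own counts, so these numbers support nothing further. Below the span, for example, Sln (83 counts), Ms4a3 (68) and Tmprss11f (64) were also at 0 in the other 5 libraries.

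Other granule genes lay on both sides of equality between the ureters, with more of them past 2-fold lower than higher. Of the 34 genes on that list, 32 could be compared between the ureters, and 10 were over 2-fold lower and 2 over 2-fold higher in Ahnak KO (median log2 ratio -0.48). With genes at 0 set to 3 counts the median was -0.49. Over all genes compared, 6.26% were lower and 4.86% higher by over 2-fold. The 10 lower were Ms4a3, Cst7, Pglyrp1, Cd177, Slpi, Padi4 and the 4 stefin genes Stfa1, Stfa2, Stfa2l1 and BC100530. Ms4a3, a gene of granulocyte and monocyte progenitors, had 68 counts in the WT ureter and 0 in the other 5 libraries. Stfa2l1, which encodes an inhibitor of cysteine proteases, had 543 counts in the WT ureter, 74 in the Ahnak KO ureter and 62 to 129 in the kidneys. The stefin genes are closely related copies, so the split of reads between them is uncertain. The 2 higher were Mmp8, a collagenase of neutrophil granules (192 counts in Ahnak KO and 88 in WT ureter), and Anxa1. These numbers used the log2(CPM + 0.5) scale. By plain CPM, Mcemp1 (0.336 in Ahnak KO against 1.13 in WT) and Prss57 (0 against 0.427) were also over 2-fold lower. Ncf4 (2.05 against 0.913) was also over 2-fold higher.

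Some genes of this list that macrophages also express were higher in the Ahnak KO ureter, and others in the WT ureter. Lyz2, lysozyme, was at 66.1 CPM in the Ahnak KO and 47.3 in the WT ureter. Ncf1, an oxidase subunit, was at 74.6 and 47.9 CPM and Ctsc, the protease that activates granule serine proteases, at 115 and 101 CPM. Cybb, another oxidase subunit, was at 3.73 in the Ahnak KO and 6.24 CPM in the WT ureter, its highest library. In the tissue comparison, 14 of 31 tested genes of this list were higher and 1, Cyba, lower in ureter. The background was 21.4% of genes higher and 23.7% lower. Ncf1 rose by 3.70 (SE 0.22, edgeR adjusted p = 6.5e-05) and Unc13d, which docks secretory granules, by 4.12 (SE 0.29, edgeR adjusted p = 0.00012).

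Genes of the mature neutrophil surface lay on both sides of equality between the ureters. Of 25 in the table, 22 could be compared, and 3 were over 2-fold lower (Ly6g, Il1b, Pilra) and 5 over 2-fold higher (Retnlg, Clec4d, Clec4e, Lilrb4a, Fcgr3) in the Ahnak KO ureter. Over all genes compared, 6.26% were lower and 4.86% higher by over 2-fold. The median log2 ratio of the 22 compared genes of this list was -0.10, or -0.12 with genes at 0 set to 3 counts. Of these 22 genes, 9 were highest in the WT ureter, against 21.6% of all genes compared. By plain CPM, Csf3r (0.773 in Ahnak KO against 1.75 in WT) and Trem1 (0.101 against 0.389) were also over 2-fold lower. Trem3 and Ceacam10 each had 12 counts in the WT and 0 in the Ahnak KO ureter, at least 2.31-fold lower. Cxcr2 was also over 2-fold higher by plain CPM (0.740 against 0.272). Examples named after their values were seen are Cxcr2, Retnlg and Ly6g. Cxcr2, the chemokine receptor of circulating neutrophils, had 22 counts in the Ahnak KO and 14 in the WT ureter. Retnlg had 206 and 83 counts, and Ly6g had 0 and 36. Csf3r, the G-CSF receptor, had 23 and 90 counts, and 191 to 321 in the kidneys. In the tissue comparison, 2 of 20 tested genes of this list were higher in ureter and 1 lower, against 21.4% and 23.7% of all genes. Csf3r was lower in ureter by a log2 fold change of -1.77 (SE 0.40, edgeR adjusted p = 0.013), while Selplg (1.53, SE 0.37, adjusted p = 0.018) and Fcgr3 (1.36, SE 0.34, adjusted p = 0.018) were higher. None of these 3 calls among 20 tested genes was left without the Ahnak KO ureter library or without WT kidney replicate 2 (0 calls in each).

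**Figure D4:**
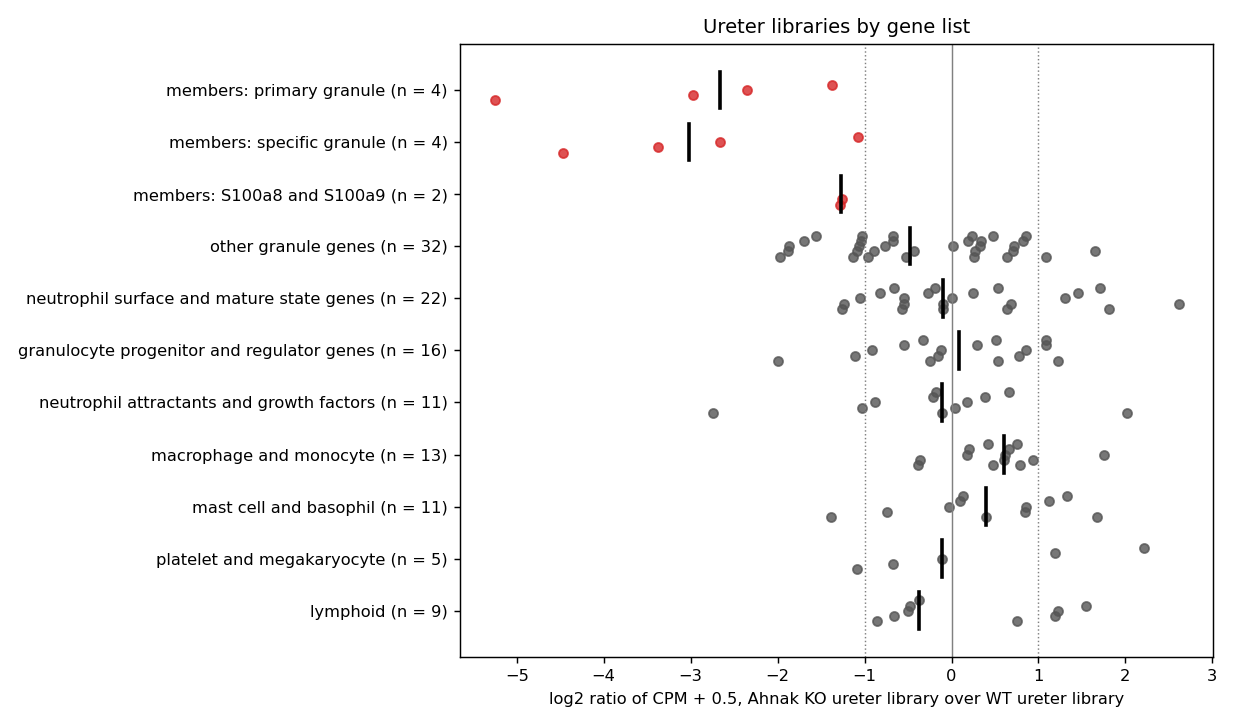
Log2 ratio of CPM + 0.5, Ahnak KO ureter over WT ureter library (x axis), for the members by class (red) and for 8 other gene lists (grey); each point is a gene, black bars are medians and dotted lines mark 2-fold. All 10 members lie left of the lower 2-fold line, while the other lists spread on both sides of 0.

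Among progenitor and regulator genes, 2 of 16 were over 2-fold lower in the Ahnak KO ureter, Cebpe and Gfi1. Gfi1, a repressor needed for granulocyte maturation, had 77 counts in the WT ureter, 0 in the Ahnak KO ureter and 0 to 8 in the kidneys. Cebpe, which drives the specific granule genes, had 30 counts, 0 counts and 0 to 16 counts in the same order. Cebpa, Cebpd and Kit were over 2-fold higher. The background was 6.26% of all genes compared lower and 4.86% higher by over 2-fold. By plain CPM, Flt3 was also over 2-fold lower, with 12 counts in the WT and 0 in the Ahnak KO ureter. Spi1, the gene for PU.1, was within 2-fold, at 8.97 CPM in the WT and 7.50 in the Ahnak KO ureter, and Myb was at 2.14 and 1.92 CPM. In the tissue comparison 6 of 15 tested were higher in ureter, with Runx1 at 3.06 (SE 0.23, edgeR adjusted p = 0.00015), and 3 were lower, with Myb at -2.19 (SE 0.25, edgeR adjusted p = 0.00091). Over all genes, 21.4% were higher and 23.7% lower in ureter.

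Genes on the list of neutrophil attractants and growth factors, which also holds adhesion genes such as Sele, differed both ways between the ureters. Of 11 compared on the log2(CPM + 0.5) scale, Cxcl2 and Csf3 were over 2-fold lower and Ccl2 over 2-fold higher in Ahnak KO. The background was 6.26% of all genes compared lower and 4.86% higher by over 2-fold. By plain CPM, Selp was also over 2-fold lower (0.538 against 1.42 CPM), and Cxcl5 (0.504 against 0.136) and Tnf (0.403 against 0.194) were over 2-fold higher. Cxcl2, a ligand of Cxcr2, had 298 counts in the WT ureter, 13 in the Ahnak KO ureter and 0 to 31 in the kidneys. In ureter against kidney 5 of 10 tested were higher and 0 lower, against 21.4% and 23.7% of all genes. The higher ones included Sele, the endothelial selectin that captures neutrophils, at 7.60 (SE 0.72, edgeR adjusted p = 0.0004), and Cxcl1 at 3.01 (SE 0.51, edgeR adjusted p = 0.0044).

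Other blood and tissue genes also differed between the ureter libraries. The 12 red blood cell genes in the table summed to 1403 CPM in the WT ureter, 667 in the Ahnak KO ureter and 680 to 857 in the kidneys, with Car1 and Hbb-bh1 at 0 throughout. These sums rest on few genes. Hba-a1, Hba-a2, Hbb-bs and Hbb-bt together were at 1379 CPM in the WT ureter, 655 in the Ahnak KO ureter and 652 to 840 in the kidneys. The 13 macrophage genes summed to 276 CPM in the WT and 407 in the Ahnak KO ureter, with none at 0, and to 157 to 189 in the kidneys. Platelet genes, 7 in the table, summed to 69.3 and 89.6 CPM in the ureters and 16.1 to 18.6 in the kidneys, with Gp9 and Gp6 at 0 in both ureters. The 13 lymphoid genes summed to 4.49 CPM in the WT and 9.18 in the Ahnak KO ureter and to 7.43 to 9.70 in the kidneys, with Cd3e, Cd8a and Vpreb2 at 0 in both ureters. The 9 eosinophil genes summed to 0.291, 1.28 and 1.38 to 3.33 CPM in the same order, and Prg2 and Prg3 were at 0 in every library.

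In all, 56 genes had at least 1 CPM in the WT ureter library and over 4 times the level of every other library, and 5 of them were members (Mpo, Elane, Camp, Ngp and Ltf). The others include Ms4a3, Cd177, Stfa2l1, Gfi1 and Cxcl2 of the lists above and, named after their values were seen, Fos, an immediate early gene (18567 counts against 360 to 5124), and the muscle genes Actc1 (10430 counts against 37 to 1480) and Myh8 (366 counts against 0 to 25). The part of red cells, muscle or immediate early genes in the members' values was not tested.

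The genes most like the members over the 6 libraries were sought among 6426 genes by Pearson r of log2(CPM + 0.5), as a description with n = 6 libraries that share depth and tissue. For the primary granule mean they were D930048N14Rik (r = 0.995), Gm12191 (0.994), Crocc2 (0.991), Sertad3 (0.989) and Ppfia4 (0.987). For the specific granule mean they were Mylpf (0.997), Ccrl2 (0.992), Neb (0.986), A730020E08Rik (0.983) and Coro6 (0.981). Mylpf and Neb are genes of skeletal muscle. An r of at least 0.9 was reached by 128 genes for the primary and by 39 for the specific granule mean.

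In the kidney the members were low apart from Lcn2, S100a8 and S100a9. Of the 10, 7 had enough counts to be fitted, while Mpo, Elane and Ctsg did not. Their fitted values are given as a description. S100a8 was at 7.56 ± 1.24 CPM in Ahnak KO and 3.90 ± 0.878 in WT kidney (SD, n = 2 each), a fitted log2 fold change of 0.96 (SE 0.28). Both Ahnak KO libraries lay above both WT libraries for S100a8, which held for 12.8% of tested genes. Without Ahnak KO kidney replicate 1, the library with high Xist, its log2 fold change was 1.12. S100a9 was at 11.1 ± 3.71 and 7.70 ± 1.70 CPM (SD, n = 2 each), with overlapping libraries and a log2 fold change of 0.53 (SE 0.30), which was 0.84 without Ahnak KO kidney replicate 1 and 0.14 without replicate 2.

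Camp was the only fitted member whose WT libraries both lay above its Ahnak KO libraries, which held for 13.5% of tested genes. Its counts were 0 to 21, and its log2 fold change of -1.63 was near its SE of 1.43. It was -0.64 without Ahnak KO kidney replicate 1 and -6.95 without replicate 2, which leaves the Ahnak KO library with 0 counts. Prtn3 was at 2.61 ± 0.352 CPM in Ahnak KO and 2.57 ± 0.157 in WT kidney (SD, n = 2 each). Lcn2 was at 17.4 ± 2.72 and 17.2 ± 3.16 CPM, Ngp at 1.34 ± 0.725 and 1.34 ± 0.314 CPM, and Ltf at 0.887 ± 0.365 and 0.805 ± 0.233 CPM (SD, n = 2 each). Their libraries overlapped, and their log2 fold changes (0.03, 0.02, 0.01 and 0.14) were below their SE (0.33, 0.21, 0.56 and 0.61).

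Of 16481 genes tested in the kidney, 0.0121% were called lower and 0.0% higher in Ahnak KO by the edgeR quasi-likelihood test. No gene of the other granule, mature neutrophil, progenitor or attractant lists was called by it, among 28, 20, 15 and 9 tested. At an unadjusted p under 0.05 there were 0, 0, 1 and 0 such genes, and DESeq2 called 0, 0, 1 and 0. The gene was Cebpd, a C/EBP factor, with 1378 and 1724 counts in Ahnak KO and 850 and 877 in WT kidney.

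**Figure D5:**
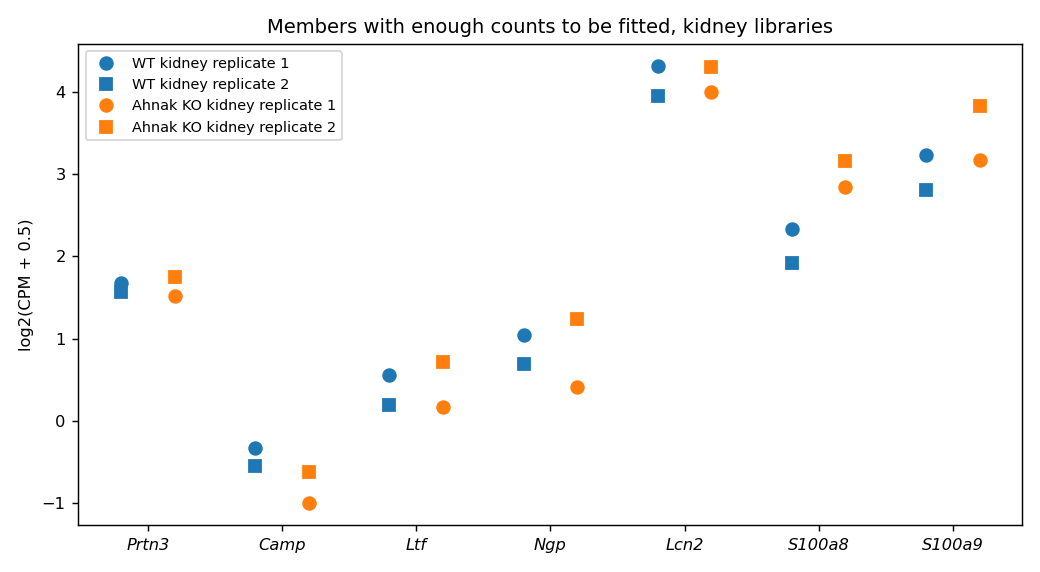
Log2(CPM + 0.5) (y axis) of the 7 members with enough counts to be fitted, in the 2 WT (blue) and 2 Ahnak KO (orange) kidney libraries; each point is 1 library. S100a8 is the gene whose Ahnak KO points both lie above the WT points, Camp the one whose Ahnak KO points both lie below.

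Between the tissues the fit was given genotype as a term, and 8 members had enough counts. The members were chosen from these libraries, so no test is given for them. Their fitted values depended on which ureter library was used. With the WT ureter as the only ureter library, the log2 fold change over kidney was 4.09 for Ngp, 3.39 for Ltf, 3.34 for S100a8, 2.92 for S100a9, 1.92 for Prtn3 and -0.61 for Lcn2. With the Ahnak KO ureter alone, it was 0.38 for Ngp, 0.03 for Ltf, 1.07 for S100a8, 1.11 for S100a9, -0.79 for Prtn3 and -1.78 for Lcn2. Ctsg was at 11.2 with the WT and 9.51 with the Ahnak KO ureter, from 0 counts in every kidney library. Camp was at 5.46 and -5.14, with 0 counts in the Ahnak KO ureter. Ctsg, S100a8 and S100a9 were thus above kidney with either ureter library, and Lcn2 below kidney with either. Camp and Prtn3 were above or below kidney depending on the library.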

How the data were processed

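Bulk RNA-seq of 6 libraries from newborn mouse kidney and ureter was analysed. The authors deposited, per gene and library, an estimated count (whole numbers), FPKM and TPM (TPM was not used here). The submitters' notes name Trimmomatic 0.38, HISAT2 2.1.0, StringTie 1.3.4b and mm10, while the study's methods name Cutadapt, STAR, Cufflinks and GRCm39, so the tool behind the counts is uncertain. A TruSeq Stranded mRNA kit was used, and whether counting used strand is not given in the sources used here. A test planned for read counts was run on the deposited estimated counts. Groups came from the labels. edgeR 4.0.16 in R 4.3.3 (TMM, filterByExpr, quasi-likelihood test, Benjamini-Hochberg adjustment over all genes) compared kidney genotypes, with 2 residual degrees of freedom, and tissues with genotype as a term, with 3. SEs are approximate, derived from the log2 fold change and its F statistic. The ureter pair was compared by log2(CPM + 0.5) for genes with at least 10 counts, with no test. Alternatives used DESeq2 1.42.0 and limma 3.58.1 on the deposited FPKM. Scripts were tested on simulated data. Motif searches used Python 3.11.15. The 10 members and all lists were chosen with earlier results of these data known. Named genes were the members, in each other list up to 6 called genes per fit by size and the 3 with the highest mean FPKM, and the 5 genes most like each granule class.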

Additional observations from a re-analysis of the deposited data

Results flagged for a closer look

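For 5 genes every kidney library pair moved one way with genotype and the ureter pair the other way, and this difference between tissues was not tested. S100a8 was higher in Ahnak KO kidney (log2 fold change 0.96) and lower in the Ahnak KO ureter (-1.28). BC100530, a stefin gene, was at 0.62 and -1.69. Tpsb2 and Cpa3, mast cell proteases, were at -1.29 and 0.10 and at -0.76 and 1.12. Hbb-bs, a beta globin gene, was at 1.15 and -10.48. Its reads cannot be placed with certainty, since Hbb-bt, its near-identical copy, had 5133 counts in the Ahnak KO ureter library where Hbb-bs had 1. The ureter value in each case rests on 1 library per genotype.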

How the results depend on the processing

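The values for the ureters rest on 1 library per genotype, and kidney has 2 per genotype. All 10 members stayed over 2-fold lower in the Ahnak KO ureter under each of 5 alternatives in scaling, pseudocount, minimum count and FPKM, and 9 stayed highest in the WT ureter library under each alternative run. Without the WT ureter library the tissue log2 fold change of Camp turned from 3.80 to -5.14, since Camp is listed at 0 in the remaining ureter library. The fits that left out 1 library each ranged from -5.14 to 5.46 for it. Genes called between kidney genotypes numbered 2, with 44 by DESeq2 (19 lower, 25 higher), 0 by limma on log2(FPKM + 1) and 0 on log2(FPKM + 0.1), 0 with all 6 libraries in one fit, and 3 to 87 when a library was left out. With the replicate number as a block 0 genes were called. The numbers are not known to pair the samples, and same-numbered libraries deviated with r = -0.28. A crossed block, added after seeing the data, gave 1 call. Genes past 2-fold between the ureters numbered 1793, and 2793 with a pseudocount of 0.1. With library size alone the median of all genes moved from -0.02 to -0.20 between the ureters and from -0.08 to -0.36 between tissues. The share of calls that was higher in ureter fell from 47.4% to 28.0%, and with limma on FPKM it was 28.4% and 27.5%. The share of ureter genes past 2-fold that was lower in Ahnak KO rose from 56.3% to 70.7%, and was 73.1% with FPKM. Of 245 log2 values of members under the alternatives, 17 had the other sign. They were the tissue values of Camp and of Prtn3 (0.82, and -0.79 without the WT ureter library), and kidney genotype values of Prtn3, Ltf, Ngp and Lcn2, which lay near 0. The furthest was Ngp, at 0.01 and -0.70 without Ahnak KO kidney replicate 2. In the tissue comparison, calls among macrophage genes numbered 8 and fell to 2 without the Ahnak KO ureter library. The causes were not tested.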
